A study of Mus musculus with 12 samples.

Results

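Collagen genes were followed in colorectal RNA of 12 male C57BL/6 mice of 8 to 10 weeks, 3 mice in each of 4 groups. The genes were taken as every symbol made of Col, a type number, the letter a and a chain number whose mean over the 12 mice was at least 0.1 FPKM, a level scaled for transcript length and sequencing depth. Of 17734 genes in the table, 44 had such a symbol, 35 reached the mean and 9 did not. The 35 genes are the members described here, and 15315 genes of the table reached the same mean. Normal mice drank water without dextran sulfate sodium (DSS), and colitis mice received DSS for 7 days (2.5% in the methods), which damages the epithelium of the large bowel. The other 2 groups, one normal and one with colitis, were given berberine (BBR), a plant alkaloid, by gavage for 6 days by the sample labels (7 days, at 100 mg/kg, in the methods), and are called normal mice with BBR and colitis mice with BBR. The RNA came from rectal tissue and not from sorted cells, so that fewer cells of a type and less RNA per cell cannot be told apart.

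Collagens are the main structural proteins of connective tissue. Each molecule is a triple helix of 3 chains, which can be copies of 1 gene product or come from several genes. Fibrillar collagens (types I, II, III, V, XI, XXIV and XXVII) form the tensile fibrils. Type IV forms the sheet of basement membranes, type VI forms beaded microfibrils around cells, and fibril-associated collagens sit on the surface of fibrils. In the bowel wall most collagen comes from fibroblasts and smooth muscle cells of the mucosa, the submucosa and the muscle layer, and the type IV network is laid down by epithelial, endothelial and muscle cells.

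The promoters of Col4a5, Col4a6 and Col18a1 are given first, because several results below are about these genes. No measurement below uses the sequences. Col4a5 and Col4a6 encode chains of the same type IV network, and both were lower in every colitis mouse than in every normal mouse. The starts of these 2 genes lie 1343 bases apart on the X chromosome and point away from each other. Col18a1 encodes type XVIII, a basement membrane collagen whose end fragment is endostatin, and it had the highest fold change of all collagen genes in colitis. It has 2 starts in RefSeq, 52825 bases apart. The 250 bases before each start are shown 5′ to 3′ on the strand of the gene, from RefSeq on build GRCm38.p6, in lower case. Capitals mark matches on either strand to any of 4 motifs. One is the GC box, spelled GGGCGG. Another is the CCAAT box, named for its letters. The others are the TATA box, spelled TATAAA, and the AP-1 motif, spelled TGANTCA. No capitals of different motifs overlap in the windows shown.
Col4a5, chrX:141475169-141475418, plus strand: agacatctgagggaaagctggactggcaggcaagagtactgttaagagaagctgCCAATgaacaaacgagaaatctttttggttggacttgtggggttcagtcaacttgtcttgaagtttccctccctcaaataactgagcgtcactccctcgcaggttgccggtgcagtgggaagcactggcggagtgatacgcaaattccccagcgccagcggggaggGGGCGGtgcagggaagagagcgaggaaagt
Col4a6, chrX:141474077-141474326, minus strand: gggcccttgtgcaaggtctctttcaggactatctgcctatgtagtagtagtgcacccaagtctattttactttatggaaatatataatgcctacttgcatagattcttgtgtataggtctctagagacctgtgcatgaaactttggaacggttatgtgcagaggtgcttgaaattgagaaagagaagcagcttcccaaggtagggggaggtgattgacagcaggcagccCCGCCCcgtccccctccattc
Col18a1 distal start, chr10:77166531-77166780, minus strand: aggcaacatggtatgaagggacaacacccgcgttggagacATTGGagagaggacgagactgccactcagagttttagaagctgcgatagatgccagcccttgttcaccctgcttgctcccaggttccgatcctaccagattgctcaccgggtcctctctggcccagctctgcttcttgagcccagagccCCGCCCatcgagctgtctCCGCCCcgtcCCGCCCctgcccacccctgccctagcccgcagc
Col18a1 proximal start, chr10:77113706-77113955, minus strand: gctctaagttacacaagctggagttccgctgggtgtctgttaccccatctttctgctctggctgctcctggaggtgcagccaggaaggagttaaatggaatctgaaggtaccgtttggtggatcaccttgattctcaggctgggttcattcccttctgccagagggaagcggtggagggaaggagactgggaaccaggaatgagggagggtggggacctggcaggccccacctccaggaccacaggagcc
The Col4a5 window held 1 GC box and 1 CCAAT, and the Col4a6 window held 1 GC box. The distal Col18a1 window held 3 GC boxes and 1 CCAAT, and the proximal window held none of the 4 motifs. RefSeq windows were matched for 29 of the 35 members, 32 windows in all. Col1a1, Col2a1, Col5a2, Col9a3, Col12a1 and Col14a1 had none. A GC box was in 20 of these 32 windows (62.5%), against 32.7% of all 32851 windows of the same length. The windows of all genes come from 27025 symbols and were not chosen by level here, while the collagen windows belong to genes that reached the mean. The 2 sets are thus not alike, for all 4 motifs. CCAAT was in 34.4% of the collagen windows and 33.8% of all windows. TATAAA was in 3 collagen windows, against 12.4% of all windows, and TGANTCA was in 1 collagen window, against 6.75% of all windows. A match is a run of letters and not a measured binding site, and no data here bear on binding.

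In normal mice the chains of types III, I and VI were the most abundant collagens. Col3a1, the chain of type III in soft tissue, was highest at 65.6, 61.8 and 156 FPKM in the 3 normal mice. Col1a2 and Col1a1, the 2 chains of type I, followed in the fibrillar class with means of 37.1 ± 24.1 and 27.2 ± 26.4 FPKM (SD, n = 3). Between them lay Col6a1 at 33.9 ± 13.3 and Col6a2 at 28.3 ± 12.5 FPKM, the chains that pair with Col6a3 in type VI. Col1a2 was above Col1a1 and Col6a1 above Col6a2 in every mouse, and the order of Col1a2 and Col6a1 differed between normal mice. Col4a1 and Col4a2, the chains of the common type IV molecule, came next at 20.9 ± 8.41 and 13.8 ± 7.54 FPKM. All other members had normal means under 10 FPKM. Over all 12 mice the minor fibrillar chains were 1.9 to 12.4 FPKM for Col5a2, 1.04 to 12.1 for Col5a1, 0.12 to 3.13 for Col5a3, 0.23 to 2.74 for Col27a1 and 0.02 to 0.31 for Col24a1. Col20a1, a fibril-associated chain, varied least among these low genes, at 1.06 to 2.01 FPKM. Col8a1 was 0.68 to 5.02, Col13a1 0.09 to 1.0 and Col23a1 0.48 to 1.71 FPKM. Over the same mice Col3a1 made up between 22.4% and 46.7% of the summed collagen FPKM.

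The mouse numbered 4 in the sample titles stood apart in every group, and this bears on every collagen result. These 4 mice are called number-4 mice here. What the number stands for is not stated in the labels. The number-4 mice had column totals of 482194 to 504337 FPKM and 872 to 1086 genes at 0. The 8 mice numbered 1 to 3 had totals of 696286 to 765876 and 1332 to 1926 genes at 0. By the spacing of the low values, 1 read was worth about 51.0 to 57.0 FPKM divided by transcript length in bases in the number-4 mice. In the others it was about 69.8 to 80.5, so 1 read weighed less in the number-4 mice. The part of sequencing depth in their values was not tested. Within their groups the number-4 mice had higher values of all 35 collagen genes on average over the groups, with a median log2 difference of 1.08, against 0.23 for all genes tested. The mouse numbered 4 was the highest of its group in all 4 groups for 19 of the 35 collagen genes (54.3%), against 16.7% of all genes. For 9 collagen genes all 4 of these mice lay above all 8 others (25.7%, against 4.81% of all genes). Of these genes Col2a1, Col9a1, Col9a3 and Col11a1 reached the mean of 0.1 FPKM only through the number-4 mice. Their division is thus partly fixed by the filter, which was the same for all genes. Counts below are therefore given also with a term for these mice and with the other mice alone.

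**Figure D1:**
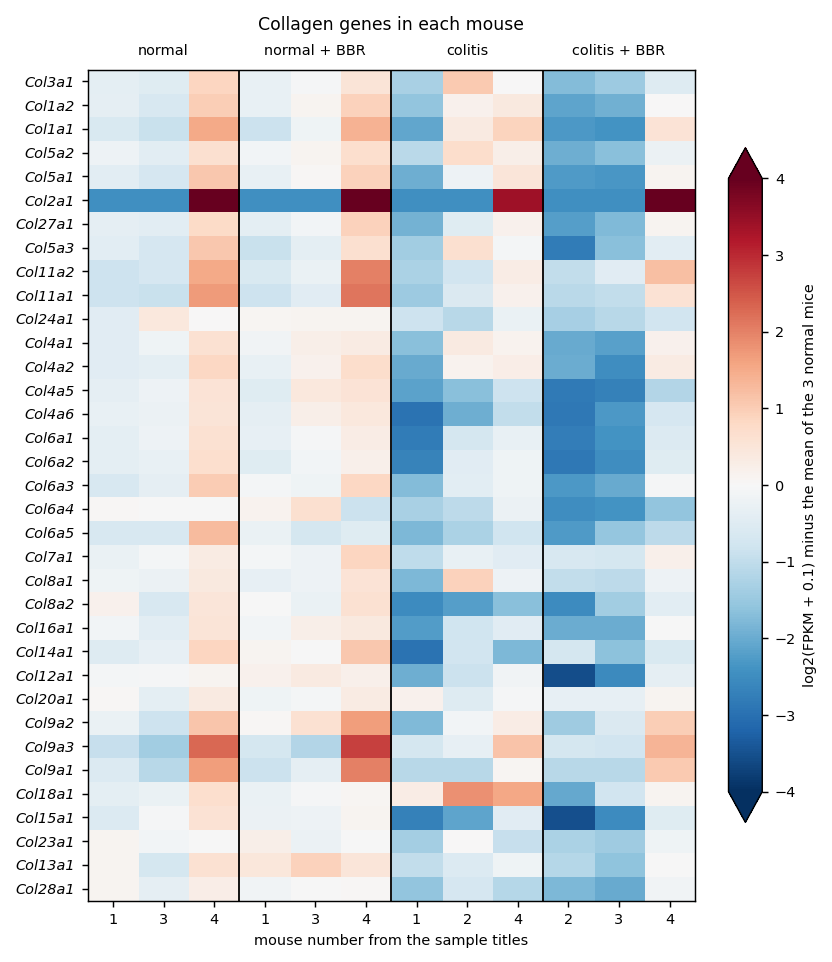
Each row is 1 collagen gene and each column 1 mouse, named by the number in its title and set out by group. Colour is log2(FPKM + 0.1) minus the mean of the 3 normal mice, from blue (lower) to red (higher), and the colour scale ends at 4 on either side. The number-4 mice are redder than their group, most of all in Col2a1, and the colitis mouse 1 and the colitis mice 2 and 3 with BBR are blue in most rows.

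The sharpest of these differences was in collagens known from cartilage. Col2a1, the single chain of type II, the main fibrillar collagen of cartilage, was 16.5, 29.4, 5.68 and 11.7 FPKM in the number-4 mice of the normal, normal BBR, colitis and colitis BBR groups. It was listed at 0.00 in all 8 other mice, where 3 reads would be worth 0.0414 to 0.0478 FPKM by the spacing of the low values in each column. Every group thus held 1 mouse with Col2a1 and 2 without, so no group comparison of this gene can be read.
The partners of type II in cartilage fibrils showed the same division of mice. Col9a1, Col9a2 and Col9a3 encode type IX, which coats type II fibrils, and Col11a1 and Col11a2 encode chains of type XI, which forms their core. Col9a3 was 0.65 to 2.15 FPKM in the number-4 mice and 0.03 to 0.17 FPKM in the others. Col9a1 was 0.13 to 0.79 against 0.00 to 0.07 FPKM. Col11a1 was 0.24 to 1.21 against 0.01 to 0.12 FPKM, and Col11a2 was 0.41 to 1.55 against 0.07 to 0.24 FPKM. For these 4 genes and Col2a1 the 2 sets of mice did not overlap. Col9a2 overlapped, at 0.87 to 2.39 against 0.13 to 1.08 FPKM.
A list of 10 other cartilage genes was made after the values of Col2a1 had been seen, and the 6 with a row in the table divided the mice less clearly. Comp, a cartilage matrix protein that tendon also makes, was 0.27 to 1.01 FPKM in the number-4 mice and 0.00 to 0.18 FPKM in the others. Hapln1, the link protein of cartilage proteoglycan, was 0.21 to 1.32 against 0.03 to 0.60 FPKM. Cnmd (chondromodulin), a cartilage glycoprotein, stayed at 0.25 FPKM or less in every mouse. Epyc, a small proteoglycan of cartilage, was 0.22 to 0.48 against 0.00 to 0.25 FPKM, and Ucma, a growth plate protein, was 0.07 to 0.34 against 0.00 to 0.41 FPKM. Sox9, a transcription factor of both cartilage and bowel epithelium, was 10.2 to 18.1 against 1.99 to 11.1 FPKM. The part of cartilage in the collagen values of these mice was not tested. Acan, Matn1, Matn3 and Snorc had no row in the table under the symbols searched, so their levels are not known here.

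**Figure D2:**
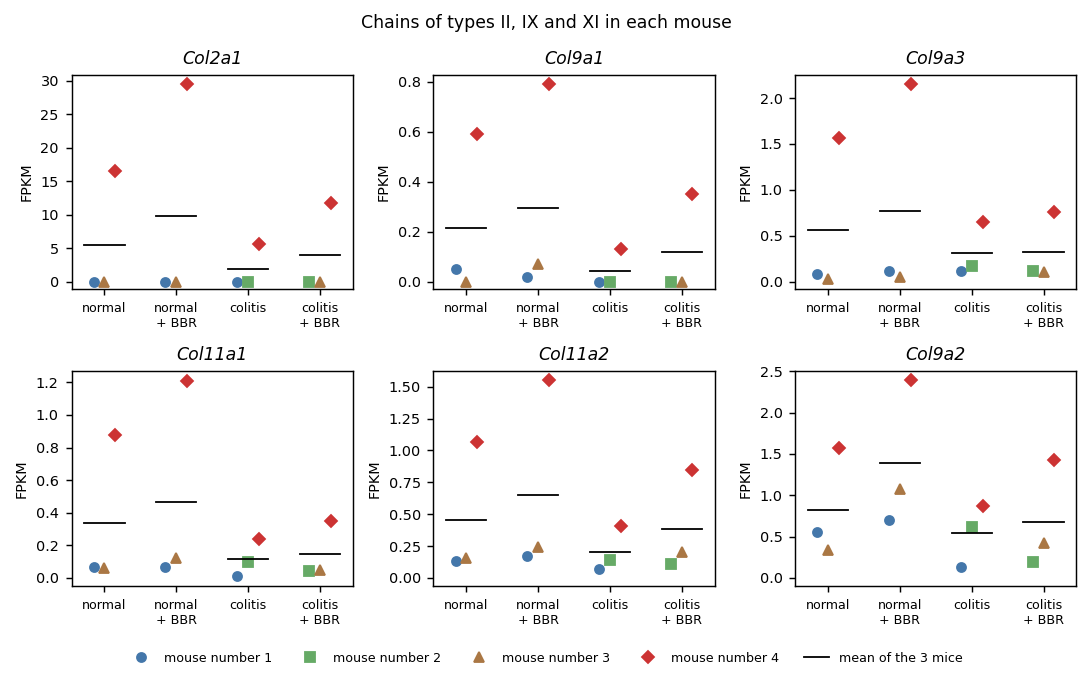
FPKM of the 6 chains of types II, IX and XI in each of 12 mice, by group, with linear axes that differ between panels. Symbols give the mouse number and the line is the mean of 3 mice. The red diamonds, number-4 mice, are the highest of their group in every panel, and the other 8 mice are at 0.00 in the panel of Col2a1.

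The comparison of colitis mice with normal mice asks which collagen genes differed after DSS. Most collagen genes had lower values in colitis, and no single one passed the adjusted limit in the fit of group means alone. Their summed level was 222, 218 and 542 FPKM in the 3 normal mice and 89.7, 383 and 322 FPKM in the 3 colitis mice, and these groups overlapped. Of the 35 genes, 33 had a negative log2 fold change, where 73.7% of all genes tested did. The median log2 fold change was -0.61 for the collagen genes and -0.32 for all genes. With limma and Benjamini-Hochberg adjustment over all genes, 0 collagen genes passed an adjusted p of 0.05, as 1.08% of all genes did. At an unadjusted p under 0.05, 7 collagen genes were lower (15.9% of all genes were) and 1 was higher (5.56%). The lower count was 12 with a term for the number-4 mice (24.8% of all genes) and 9 in the mice numbered 1 to 3 alone (27.4%). With 1 mouse left out it ranged from 3 without normal mouse 4 (10.7%) or colitis mouse 1 (9.89%) to 10 without colitis mouse 4 (25.3%). The 1 higher gene was lost without normal mouse 1 or 3 or colitis mouse 2 or 4. The 10 markers of smooth muscle were also lower in every colitis mouse than in every normal mouse (22.2% of all genes). Their median log2 fold change was -2.99, and their part in the collagen values was not tested. In 10 collagen genes all 3 colitis mice lay below all 3 normal mice, and 22.2% of all genes did so.
These values depended on the number-4 mice. With a term for them in the limma fit, 5 collagen genes passed the adjusted limit (6.42% of all genes were lower by that fit), namely Col8a2, Col4a6, Col4a5, Col15a1 and Col14a1. In the mice numbered 1 to 3 alone, Col15a1 and Col4a6 passed (3.69% of all genes were lower). With a replicate block, which fits the mouse numbers beside the groups, Col14a1 and Col8a2 passed (2.58% of all genes were lower). Without normal mouse 4 only 22 of the 35 genes had a negative fold change and the median was -0.27, and without colitis mouse 1 these values were 22 and -0.31. Centring each mouse on its median moved the median of all genes to 0.02 and that of the collagen genes to -0.27.

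**Figure D3:**
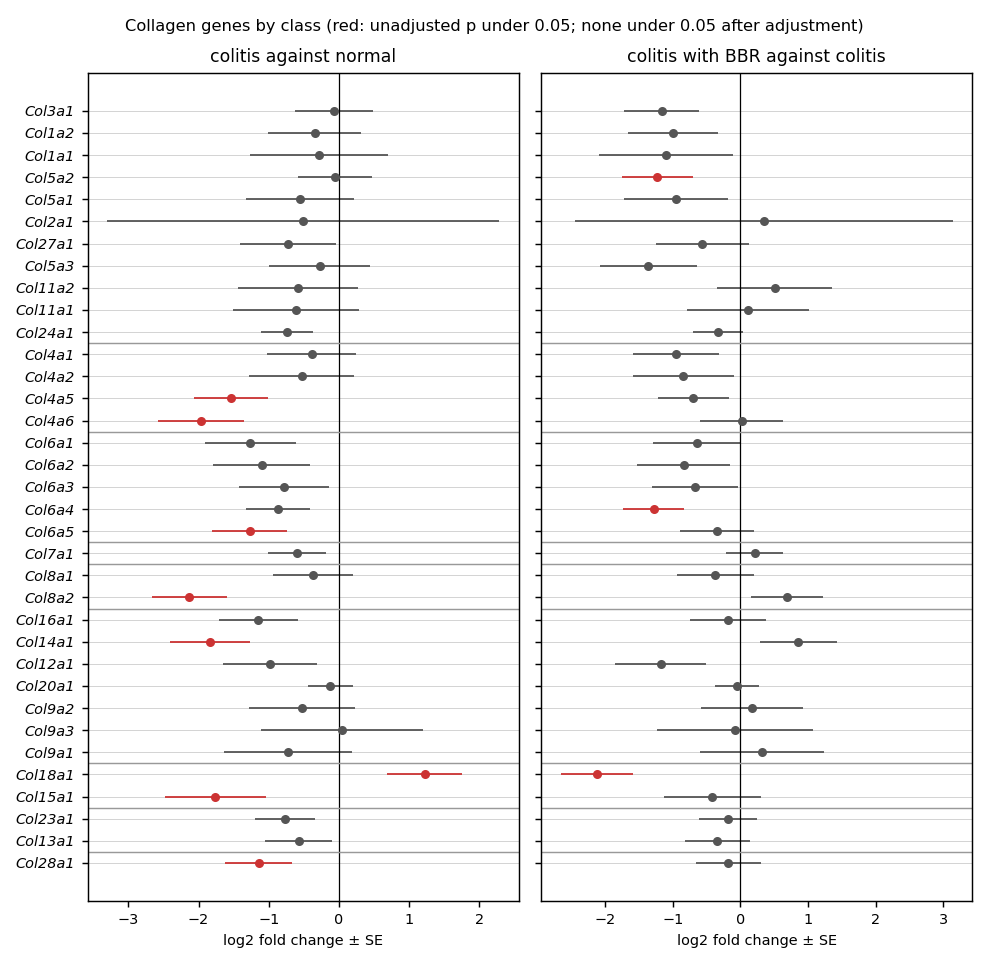
Log2 fold change with its standard error from limma for the 35 collagen genes, set out by class, in colitis mice against normal mice (left) and in colitis mice with BBR against colitis mice (right). Red marks an unadjusted p under 0.05. Most points lie left of 0 in both panels, and Col18a1 lies at 1.22 on the left and -2.13 on the right.

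Basement membrane collagens differed among themselves. Col4a5 was 1.69, 1.88 and 3.26 FPKM in normal mice and 0.42, 0.62 and 1.2 FPKM in colitis mice. Every colitis mouse was below every normal mouse, and the log2 fold change was -1.54 ± 0.53 (SE; limma, adjusted p = 0.141). Col4a6 was 0.78, 0.83 and 1.46 FPKM in normal mice and 0.04, 0.18 and 0.45 FPKM in colitis mice. Its log2 fold change was -1.96 ± 0.61 (limma, adjusted p = 0.117), again with no overlap. These 2 chains join in the type IV network that is known around smooth muscle. The chains of the widespread network, Col4a1 and Col4a2, overlapped between the groups. Col4a1 was 14.6, 17.8 and 30.5 FPKM in normal mice and 6.14, 25.7 and 22.2 FPKM in colitis mice. Col4a2 was 9.28, 9.65 and 22.5 FPKM in normal mice and 3.07, 13.9 and 15.3 FPKM in colitis mice. For both, only colitis mouse 1 was below all normal mice, and the fold changes of -0.39 ± 0.64 and -0.53 ± 0.75 were smaller than their standard errors.

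The 2 multiplexins, collagens with an interrupted helix that sit in basement membrane zones, went opposite ways. Col15a1 was 3.33, 4.69 and 7.35 FPKM in normal mice and 0.67, 1.04 and 3.49 FPKM in colitis mice. Only colitis mouse 4 reached the normal range, and the log2 fold change was -1.76 ± 0.72 (limma, adjusted p = 0.194). Col18a1 was 3.53, 3.88 and 7.58 FPKM in normal mice and 5.84, 16.9 and 13.9 FPKM in colitis mice. Colitis mice 2 and 4 were above all normal mice and colitis mouse 1 was inside the normal range. The log2 fold change was 1.22 ± 0.53 (limma, adjusted p = 0.214), and 1 mouse left out at a time kept it between 0.92 and 1.68. Col18a1 was the only collagen gene with a positive fold change at an unadjusted p under 0.05.

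Among type VI chains, the abundant trio overlapped between groups. Col6a1 was 24.5, 28.1 and 49.1 FPKM in normal mice and 4.61, 19.8 and 26.3 FPKM in colitis mice. Col6a2 was 20.5, 21.6 and 42.7 FPKM in normal mice and 4.08, 19.6 and 23.4 FPKM in colitis mice. Col6a3, the long chain of the trio, was 4.14, 5.02 and 13.3 FPKM in normal mice and 1.90, 4.80 and 5.76 FPKM in colitis mice. Their log2 fold changes were -1.26 ± 0.65, -1.10 ± 0.69 and -0.78 ± 0.64, with adjusted p from 0.273 to 0.464 by limma. The low colitis mouse was mouse 1 in all 3 genes. Col6a4 and Col6a5, chains that can take the place of Col6a3, did not overlap between the groups. Col6a5 was 0.30, 0.30 and 1.39 FPKM in normal mice and 0.08, 0.16 and 0.26 FPKM in colitis mice, and Col6a4 was 0.82, 0.78 and 0.78 against 0.26, 0.33 and 0.66 FPKM.

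The large fibrillar chains showed no common direction against their spread. Col3a1 was 35.0, 179 and 87.6 FPKM in colitis mice, so that colitis mouse 2 was above and colitis mouse 1 below every normal mouse. The log2 fold change was -0.07 ± 0.55 (limma, adjusted p = 0.949). Col1a1 was 13.1, 10.8 and 57.7 FPKM in normal mice and 4.67, 26.0 and 37.1 FPKM in colitis mice. Col1a2 was 25.5, 20.9 and 64.8 FPKM in normal mice and 10.8, 36.5 and 42.6 FPKM in colitis mice. Their fold changes were -0.28 ± 0.99 and -0.35 ± 0.66. Chains of type V, which start type I fibrils, were likewise within their spread at -0.55 ± 0.77 for Col5a1 and -0.06 ± 0.53 for Col5a2. Col2a1 set aside, all 10 fibrillar genes had negative fold changes in the fit of 12 mice, with a median of -0.45, and 0 of them had groups that did not overlap. The direction rested on single mice, since 7 of the 10 were positive without normal mouse 4 (median 0.21) and 6 without colitis mouse 1 (median 0.21). In the mice numbered 1 to 3 alone 3 were positive, and 4 were with median centring.

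In 3 of the 7 fibril-associated members the colitis mice lay below all normal mice, where 22.2% of all genes did so. Col14a1, a chain that binds fibrils of type I in mature tissue, was 3.43, 3.90 and 9.04 FPKM in normal mice and 0.55, 2.85 and 1.37 FPKM in colitis mice. Its log2 fold change was -1.84 ± 0.57 (limma, adjusted p = 0.113). Col12a1, a fibril-associated chain of dense and wounded tissue, was 2.81, 2.87 and 3.19 FPKM in normal mice and 0.69, 1.60 and 2.66 FPKM in colitis mice. Col16a1 had a fold change of -1.15 ± 0.56 and also did not overlap. Col9a3, at 0.04 ± 1.15, was the only other gene with a positive value beside Col18a1.
Of the remaining members, Col8a2, a short chain collagen of the type VIII network, had the most negative fold change of all 35. It was 0.73, 0.37 and 0.94 FPKM in normal mice and 0.03, 0.06 and 0.13 FPKM in colitis mice. The log2 fold change was -2.14 ± 0.53 (limma, adjusted p = 0.071), where 3 reads would be worth 0.0357 to 0.0564 FPKM over the 12 mice. Its partner Col8a1 overlapped between groups, with colitis mouse 2 the highest of the 6 mice at 5.02 FPKM and colitis mouse 1 the lowest at 0.68 FPKM. Col7a1, the collagen of the fibrils that anchor epithelium, was 0.19, 0.23 and 0.33 FPKM in normal mice and 0.07, 0.18 and 0.15 FPKM in colitis mice. The transmembrane Col13a1 and Col23a1 overlapped between the groups, and Col28a1, a chain known from nerve, was 0.62 to 1.03 FPKM in normal mice and 0.21 to 0.48 FPKM in colitis mice. Col17a1, the transmembrane collagen that anchors stratified epithelium, was below the mean of 0.1 FPKM and was not tested. It was 0.01, 0.00 and 0.03 FPKM in normal mice, 0.00, 0.08 and 0.00 FPKM in normal mice with BBR, 0.06, 0.08 and 0.06 FPKM in colitis mice, and 0.01, 0.09 and 0.05 FPKM when these had BBR.

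**Figure D4:**
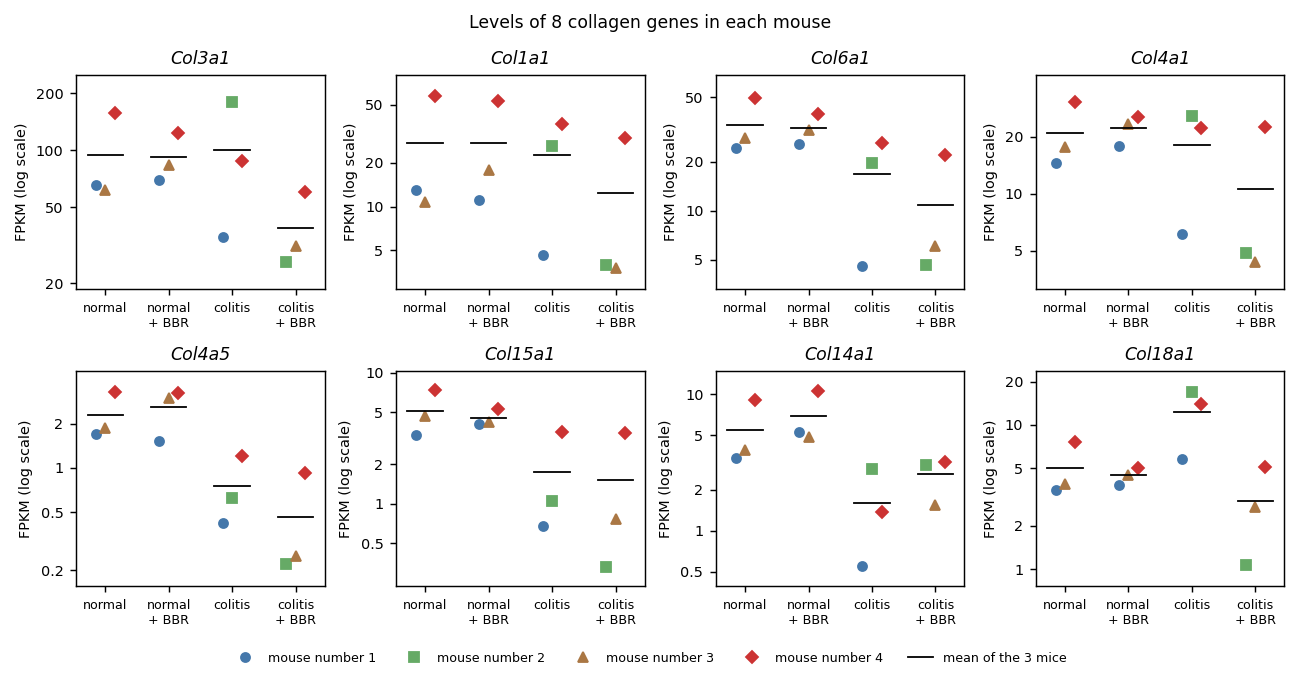
FPKM on a log scale of 8 collagen genes in each of 12 mice, by group. Symbols give the mouse number and the line is the mean of 3 mice. Col4a5 and Col14a1 lie lower in all 3 colitis mice than in all 3 normal mice, Col3a1 spans 35.0 to 179 FPKM within the colitis group, and Col18a1 is lower in all 3 colitis mice with BBR than in all 3 colitis mice.

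The comparison of colitis mice with BBR with colitis mice asks what BBR did to the collagen genes during DSS. Both chains of type I and Col3a1 were lower in mice 2 and 3 of the colitis group with BBR than in every colitis mouse, but their number-4 mouse lay among the colitis mice. The summed collagen level in colitis mice with BBR was 68.7, 78.4 and 268 FPKM, with a mean of 138 ± 113 FPKM against 265 ± 155 FPKM in colitis mice (SD, n = 3). This comparison and that of colitis with normal mice share the 3 colitis mice, so a high or low colitis mouse moves both. Of the 35 genes, 26 had a negative fold change, against 62.0% of all genes, and the median was -0.37 against -0.09. By limma 0 collagen genes passed the adjusted limit, and 0.0% of all genes did. At an unadjusted p under 0.05, 3 collagen genes were lower (5.2% of all genes). The count was 7 with the term for the number-4 mice (7.8% of all genes) and 8 in the mice numbered 1 to 3 alone (6.21%). Leaving out 1 mouse moved it from 1, without colitis mouse 4 (4.39%) or treated mouse 2 (2.46%), to 12 without colitis mouse 1 (6.07%) and 15 without treated mouse 4 (9.54%). Col18a1 and Col6a4 were the 2 collagen genes in which all 3 treated mice lay below all 3 colitis mice (5.66% of all genes). Without mouse 4 of the treated group the median was -1.23 and 33 genes were lower. In the mice numbered 1 to 3 alone 32 were lower, with a median of -0.66. With the term for the number-4 mice in the fit the adjusted count stayed at 0.

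Col18a1 had the most negative fold change of this comparison. It was 1.07, 2.71 and 5.07 FPKM in colitis mice with BBR, against 5.84, 16.9 and 13.9 FPKM in colitis mice. The log2 fold change was -2.13 ± 0.53 (limma, adjusted p = 0.481), and 1 mouse left out at a time kept it between -2.63 and -1.56. An exact two-sided permutation test of the FPKM values gave p = 0.1, the smallest that 3 mice against 3 allow. Of the treated mice 2 were below all normal mice and 1 was among them. The other large negative values were in Col5a3, a minor type V chain, at -1.36 ± 0.72, and Col6a4 at -1.28 ± 0.46. Col5a3 was 0.48, 2.26 and 1.33 FPKM in colitis mice and 0.12, 0.37 and 1.02 FPKM in treated mice, so that the groups overlapped. Col6a4 was 0.06, 0.07 and 0.2 FPKM in treated mice, all below the colitis mice. Col5a2 had a fold change of -1.23 ± 0.53 (limma, adjusted p = 0.731).
The abundant chains overlapped between the groups. Col3a1 was 25.9, 31.4 and 60.0 FPKM in colitis mice with BBR, of which 2 mice were below and 1 among the colitis mice. Its log2 fold change was -1.16 ± 0.55. Col1a1 was 3.98, 3.77 and 29.5 FPKM, Col1a2 was 7.55, 8.45 and 32.7 FPKM, and their fold changes were -1.10 ± 0.99 and -0.998 ± 0.66. In both type I chains treated mice 2 and 3 were below all colitis mice and treated mouse 4 was among them. Col4a1 was 4.83, 4.36 and 22.6 FPKM, Col4a2 was 3.14, 2.17 and 16.1 FPKM, and their fold changes were -0.95 ± 0.64 and -0.84 ± 0.75. Col6a1 was 4.63, 6.11 and 22.01 FPKM and Col6a2 was 3.62, 4.66 and 18.9 FPKM. Col6a3, at 1.25, 1.55 and 6.28 FPKM, had its highest treated mouse above all colitis mice. Between the 2 number-4 mice 19 of the 35 collagen genes were higher in the treated one and 16 were lower, at a median log2 difference of 0.03. In the type IV and type VI pairs it was 0.03 for Col4a1, 0.07 for Col4a2, -0.25 for Col6a1 and -0.31 for Col6a2 on the log2 scale.
The 3 largest positive values belonged to Col14a1, Col8a2 and Col11a2. Col14a1 was 3.02, 1.53 and 3.19 FPKM in colitis mice with BBR, with a log2 fold change of 0.86 ± 0.57. Col8a2 was 0.03, 0.18 and 0.45 FPKM, with 0.69 ± 0.53. None of the 3 passed an unadjusted p of 0.05. Col15a1 and Col7a1 were within their spread, at -0.42 ± 0.72 and 0.21 ± 0.42. Col15a1 was 0.33, 0.76 and 3.47 FPKM and Col7a1 was 0.12, 0.11 and 0.30 FPKM in treated mice.

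In normal mice, BBR left no collagen gene past an unadjusted p of 0.05 by limma. The summed collagen level was 235, 293 and 480 FPKM in normal mice with BBR, inside the range of normal mice. Of the 35 genes 26 had a positive fold change, where 45.9% of all genes did, and the median was 0.14 against -0.02. The adjusted count was 0 (0.0% of all genes), and at an unadjusted p under 0.05 it was 0 as well (1.36% of all genes), also with the term for the number-4 mice and in the mice numbered 1 to 3 alone, where 32 genes had a positive fold change and the median was 0.22. The direction rested on single mice. Without mouse 4 of the treated group 26 genes had a negative fold change and the median was -0.13, and without normal mouse 1 or 3 the median was -0.05 or -0.07. Without normal mouse 4 it was 0.44, and 2 genes had a negative value. The largest positive values were in Col9a2, at 0.77 ± 0.75, Col13a1, at 0.62 ± 0.48, and Col14a1, at 0.39 ± 0.57. The most negative were in Col6a5, at -0.49 ± 0.54, Col5a3, at -0.22 ± 0.72, and Col6a2, at -0.13 ± 0.69. Col12a1 was the 1 collagen gene in which the groups did not overlap, at 3.37, 3.83 and 3.45 FPKM with BBR (4.17% of all genes were higher in this way). Col9a2 was 0.70, 1.08 and 2.39 FPKM with BBR against 0.55, 0.34 and 1.57 FPKM without it, and Col13a1 was 0.68, 1.00 and 0.71 against 0.52, 0.25 and 0.78 FPKM. Col6a5 was 0.42, 0.28 and 0.34 FPKM with BBR, and only the number-4 normal mouse was far above that. The abundant chains lay close to normal mice. With BBR, Col3a1 was 69.3, 83.9 and 123 FPKM, Col1a1 was 11.1, 17.7 and 53.1 FPKM, and Col18a1 was 3.86, 4.52 and 5.02 FPKM.

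Colitis mice with BBR were also set against normal mice. This comparison shares its normal mice with the comparison of colitis mice and its treated mice with that of BBR in colitis. All 35 collagen genes had a negative fold change, where 81.1% of all genes did, and the median was -1.32 against -0.42. Quantile normalization left 30 of the 35 negative, with a median of -0.79 against -0.01 for all genes. By limma 0 collagen genes passed the adjusted limit (0.0196% of all genes did), and 17 had an unadjusted p under 0.05 (18.3% of all genes were lower in this way). The latter count was 24 with the term for the number-4 mice (29.9%) and 22 in the mice numbered 1 to 3 alone (35.0%). With 1 mouse left out it was 5 without treated mouse 2 (8.06%), 9 without treated mouse 3 (8.85%), 6 without normal mouse 4 (12.4%) and 25 without treated mouse 4 (37.1%). In 11 collagen genes the groups did not overlap (20.8% of all genes). The mouse numbered 4 of the treated group decided the count. Without it 19 collagen genes passed the adjusted limit, where 17.2% of all genes did in that direction, and the treated group then had 2 mice. In the mice numbered 1 to 3 alone 8 passed (12.7% of all genes), and with the term for the number-4 mice only Col4a5 did (0.196% of all genes).
The most negative values were in Col4a5, Col15a1 and Col12a1. Col4a5 was 0.22, 0.25 and 0.92 FPKM in colitis mice with BBR, below all normal mice, with a log2 fold change of -2.23 ± 0.53 (limma, adjusted p = 0.186). Col15a1 had -2.18 ± 0.72 and overlapped only through treated mouse 4. Col12a1 was 0.16, 0.42 and 2.27 FPKM, with -2.16 ± 0.67 and no overlap. All 5 type VI members had an unadjusted p under 0.05 (18.3% of all genes were lower in this way), and 4 of them did not overlap between the groups (20.8%). Only 1 of the 5 was left at this limit without treated mouse 2 or without normal mouse 4, and 3 were left without treated mouse 3. Col6a1 had -1.90 ± 0.65 and Col6a2 -1.94 ± 0.69 on the log2 scale. Col2a1 set aside, the values nearest 0 were in Col9a3, Col11a2 and Col20a1, at -0.03 ± 1.15, -0.08 ± 0.85 and -0.17 ± 0.32. Whether the action of BBR differed between colitis and normal mice was tested as an interaction. Of the 35 genes 28 had a negative interaction, where 58.9% of all genes did, with a median of -0.59 against -0.08. In the fit of all 12 mice Col18a1 was the only collagen gene with an unadjusted p under 0.05, at -2.04 ± 0.75 (limma, adjusted p = 1.00), where 1.72% of all genes were lower in this way. That count was 3 with the term for the number-4 mice (3.0% of all genes), 4 with a replicate block (3.79%), 6 in the mice numbered 1 to 3 alone (2.51%) and 8 without mouse 4 of the colitis group with BBR (2.81%). It was 0 without colitis mouse 2 (1.4%). The next values were -1.45 ± 0.74 for Col5a2 and -1.43 ± 0.95 for Col12a1, and the highest were 0.58 ± 0.75 for Col8a2, 0.47 ± 0.80 for Col14a1 and 0.14 ± 0.76 for Col6a5. The adjusted count was 0 (0.0% of all genes).

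Chains of 1 molecule can be compared within a mouse, because FPKM is per length and scaling between mice falls out of the ratio. Type I holds more of its alpha 1 than of its alpha 2 chain, yet the ratio of Col1a1 to Col1a2 FPKM was below 1 in every mouse. It was 0.512, 0.517 and 0.890 in normal mice, 0.417, 0.502 and 0.862 in normal mice with BBR, 0.431, 0.712 and 0.871 in colitis mice, and 0.527, 0.446 and 0.902 when these had BBR. The highest ratio of each group was that of the mouse numbered 4, at 0.862 to 0.902, and the other 8 mice lay at 0.417 to 0.712. The ratio of Col3a1 to Col1a1 divided the mice the other way, with 2.04 to 2.71 in the number-4 mice and 4.73 to 8.33 in the others. Col5a1 to Col5a2 was 0.888 to 1.02 against 0.390 to 0.709, and Col4a1 to Col4a2 was 1.22 to 1.45 against 1.54 to 2.01. Col6a1 to Col6a2 did not divide the mice, at 1.12 to 1.28 against 1.01 to 1.36. Thus the higher collagen values of the number-4 mice were not equal for the 2 chains of types I, IV and V.
Between the study's groups the ratios were compared only by an exact permutation test, which cannot go below p = 0.1. Over 20 exact two-sided permutation tests, 5 ratios in 4 comparisons, the smallest p was 0.1, which is the smallest possible, and all adjusted p were 1. It was reached by Col6a1 to Col6a2, at 1.09 ± 0.07 in colitis mice against 1.21 ± 0.08 in normal mice and against 1.25 ± 0.08 in colitis mice with BBR (SD, n = 3). The largest relative difference of group means was in Col5a1 to Col5a2, at 0.559 in colitis mice against 0.758 in normal mice, with overlapping groups.

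**Figure D5:**
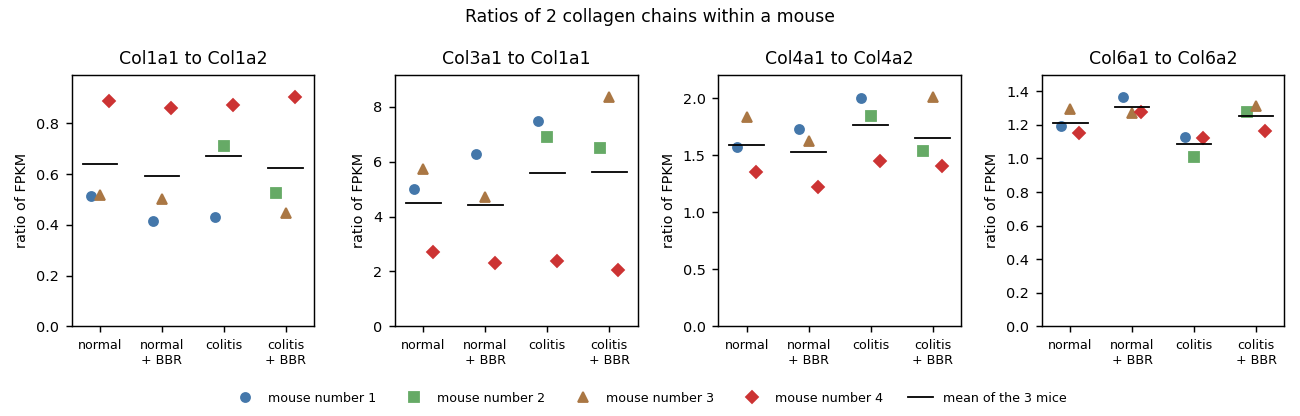
Ratio of the FPKM of 2 collagen chains in the same mouse, by group, on linear axes that start at 0. Symbols give the mouse number and the line is the mean of 3 mice. The red diamonds lie at 0.862 to 0.902 for Col1a1 to Col1a2 in all 4 groups and apart from the other mice, and they lie among the other mice for Col6a1 to Col6a2.

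The genes that fold, process, bind and degrade collagens were read from fixed lists. Of 18 genes of collagen modification and folding, such as the prolyl hydroxylases, 15 had a negative fold change in colitis mice against normal mice. Of all genes tested 73.7% did. Past the adjusted limit were 0 of the 18 (1.08% of all genes), and their median of -0.32 equalled that of all genes. The largest positive values were in P4hb (0.27) and P4ha1 (0.06), and the most negative in P4ha3 (-1.25) and P3h2 (-0.79). Of 12 tested genes of procollagen processing and crosslinking 8 were negative (73.7% of all genes). Lox, the crosslinking lysyl oxidase, was at 1.55, Adamts3 at 0.15, Pcolce2 at -1.37 and Adamts2, a procollagen protease, at -0.89. Of 9 collagen receptors 6 were negative (73.7% of all genes). Itga2, an integrin gene, was at 1.35, Lair1, a leukocyte receptor, at 0.85, and the integrin genes Itga11 and Itga1 at -1.33 and -1.18. None of these genes passed the adjusted limit, where 1.08% of all genes did. In colitis mice with BBR against colitis mice the same lists had 16 of 18, 9 of 12 and 8 of 9 genes negative, where 62.0% of all genes were, again with 0 past the limit, and the most negative gene of the crosslinking list was Lox at -1.76 and of the receptors Lair1 at -1.57, followed by Itga2 at -1.41 on the log2 scale.
Small leucine-rich proteoglycans, which bind and space collagen fibrils, had 7 of 8 negative values in colitis (73.7% of all genes), with a median of -1.61. Ogn (osteoglycin) was 41.8, 44.4 and 57.5 FPKM in normal mice and 8.09, 10.1 and 9.46 FPKM in colitis mice. It fell by 2.36 on the log2 scale (SE 0.41, limma, adjusted p = 0.0264). It was the only gene of the list past the limit (0.424% of all genes were lower in this way). Dcn (decorin) was the exception at 0.33. In colitis mice with BBR against colitis mice 5 of the 8 were positive (38.0% of all genes), with a median of 0.38. Values ran from -1.02 for Bgn to 1.74 for Fmod, and 0 passed the adjusted limit (0.0% of all genes). Of the collagen-degrading enzymes, Mmp8, the collagenase of neutrophils, was 0.03, 0.00 and 0.00 FPKM in normal mice and 1.01, 3.49 and 0.44 FPKM in colitis mice (limma, adjusted p = 0.0375), and it rose. Its fold change depends on the pseudocount, because the normal mice were at or near 0. Mmp13, collagenase 3, was 1.67, 2.93 and 1.19 FPKM in normal mice and 27.0, 162 and 9.99 FPKM in colitis mice, and its log2 fold change was 4.22 (limma, adjusted p = 0.067). It was 1.24, 3.49 and 0.12 FPKM in colitis mice with BBR. In colitis mice with BBR against colitis mice 6 of the 7 degrading enzymes had negative values (62.0% of all genes) and 5 were lower at an unadjusted p under 0.05 (5.2% of all genes), but 0 passed the adjusted limit by limma, where the smallest adjusted p was 0.418.
Matrix glycoproteins of wounds divided in colitis. Spp1 (osteopontin) was 0.06, 0.11 and 0.39 FPKM in normal mice and 1.13, 5.33 and 1.78 FPKM in colitis mice, and it rose by 3.19 ± 0.67 on the log2 scale (limma, adjusted p = 0.0477). Postn (periostin) was at -2.05 and Ccn2 at -1.85 without passing the limit. Of 15 other basement membrane genes 9 were negative, where 73.7% of all genes were. Lama1, a laminin chain, was at 1.28, and the laminin genes Lamb2 and Lama2 had the most negative values, at -2.01 and -1.54. In colitis mice with BBR against colitis mice 12 of these 15 and 6 of the 8 wound glycoproteins were negative (62.0% of all genes). Past the limit were 0 (0.0% of all genes), and Lama1 was at -1.49. The calls of Ogn, Mmp8 and Spp1 were sensitive to single mice. When 1 mouse was left out, Ogn and Mmp8 passed the limit only without colitis mouse 4, and Spp1 did not pass in any of the 6 fits (adjusted p from 0.0602 to 0.197).

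Smooth muscle cells and fibroblasts share the bowel wall, and the amount of muscle in a sample was not recorded. The summed FPKM of 10 smooth muscle genes was 1683 to 3198 in normal mice and 74.3 to 685 in colitis mice. All 10 genes were lower in every colitis mouse than in every normal mouse, where 22.2% of all genes were. Their median log2 fold change was -2.99, and 0 passed the adjusted limit (1.08% of all genes did). In colitis mice with BBR the sum was 508, 486 and 3576 FPKM, so that their number-4 mouse was above all normal mice, as it was highest of its group for most collagen genes. In normal mice with BBR it was 2366 to 5082 FPKM. In colitis mice with BBR against colitis mice all 10 smooth muscle genes had a positive fold change, where 38.0% of all genes did. Their median was 1.44, but 0 had an unadjusted p under 0.05 by limma, and the groups overlapped in all 10. The colitis sums were 74.3, 663 and 685 FPKM in mice 1, 2 and 4. Treated mice 2 and 3 lay below colitis mice 2 and 4 and above colitis mouse 1 in this sum. Of the 35 collagen genes 26 had a negative fold change in the same comparison. The lowest sum, 74.3 FPKM, was that of colitis mouse 1, the colitis mouse with the lowest collagen sum.
The 7 fibroblast markers summed to 123 to 192 FPKM in normal mice, 65.9 to 212 in colitis mice and 79.6 to 103 in colitis mice with BBR. Colitis mouse 2, with the highest Col3a1 of all 12 mice, also had the highest fibroblast sum. The 5 endothelial markers summed to 20.9 to 22.6 FPKM in normal mice, 6.30 to 16.7 in colitis mice and 5.60 to 12.3 in colitis mice with BBR. The 5 leukocyte markers summed to 84.3 to 114 FPKM in normal mice, 132 to 549 in colitis mice and 76.0 to 139 in colitis mice with BBR. Markers of columnar epithelium, which define the tissue, summed to 6095 FPKM or more in every mouse. Those of squamous epithelium summed to 0.65 to 8.21 FPKM, those of skeletal muscle to 8.79 to 21.6 FPKM, those of enteric glia and neurons to 6.18 to 27.1 FPKM and those of fat cells to 0.45 to 42.4 FPKM over the 12 mice. The part of these cells in the collagen values was not tested.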

How the data were processed

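Colorectal RNA of 12 mice was sequenced by the authors, and groups were taken from the sample titles and labels. By the methods ribosomal RNA was removed and single-end reads of 50 bases were made (the labels name another kit), and reads were aligned with Bowtie2 2.2.5 and quantified with RSEM 1.2.12, with build mm9 in the submitters' processing notes. The deposited values, 1 per gene and mouse, were read as FPKM from their range, and TPM could not be told apart with certainty. The unit is not named in the sources used here, no counts were used and read depth was not read from a source. Only the worth of 1 read was estimated for each column, and it was lower in the number-4 mice. FPKM spreads per length and per depth, so a few very abundant genes can move all others.

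Values were analysed as log2(FPKM + 0.1) for 15315 genes that reached a mean of 0.1, in 1 limma fit of 4 group means over 12 mice with a trended empirical Bayes variance (limma 3.58.1, R 4.3.3), and p-values were adjusted over all these genes with a limit of 0.05. Fold changes on this scale understate those of low genes. The fit was tested on simulated data. Single values and chain ratios were compared by exact two-sided permutation tests (SciPy 1.17.1), whose smallest p for 3 mice against 3 is 0.1. The level of 3 reads was estimated from the spacing of low values in each column and covers counting error only. That the 3 samples of a group are separate mice is read from the labels. Alternatives were other pseudocounts, filters and scalings, the compared groups alone, no trend, a term for mice with the number 4 (number-4 mice), the fit without those 4 mice, a replicate block, and 1 mouse left out at a time.

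The collagen genes and the gene lists were chosen with earlier results of these data known. Named in full were the abundant chains of types I, III, IV and VI, Col7a1, Col15a1, Col17a1 and Col18a1, and the 3 largest and 3 smallest fold changes of each comparison. In the context lists, genes past the adjusted limit were named, and otherwise the 2 largest and 2 smallest values. One result that this rule would name is not reported here. Dcn, Mmp13, Postn, Ccn2 and the cartilage genes were named after their values had been seen. Replicate numbers were shared by mice of different groups. In BBR against normal the deviations of the 3 same-numbered pairs correlated at 0.29, 0.11 and 0.66, and the replicate block changed no call there. Promoter sequences were taken from RefSeq on GRCm38.p6, and coordinates of other genes were not used because the builds differ.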

Additional observations from a re-analysis of the deposited data

How the results depend on the processing

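The number-4 mice changed the counts most. In colitis against normal, 0 collagen genes past the adjusted limit became 2 with a replicate block (Col14a1 and Col8a2, where 2.58% of all genes were lower), 5 with a term for the number-4 mice and 2 in the mice numbered 1 to 3 alone. The correlation of deviations between same-numbered mice was 0.39 and 0.40 there and 0.08 and 0.75 in BBR against colitis, where only 2 numbers are shared, which does not settle whether the numbers pair mice. Mice of the same number 1 to 3 correlated at 0.21 on average and those of different numbers at 0.19, against 0.50 for the number-4 mice. In colitis with BBR against normal the count became 1 with the term and 8 in the mice numbered 1 to 3 alone, and it ranged from 0 to 19 with 1 mouse left out, 19 being without mouse 4 of the treated group. With 1 mouse left out the median of BBR against colitis ranged from -1.23 to -0.16, the lowest without the same mouse. The cause was not tested. In every other setting the adjusted count was 0, as in the fits reported, while counts at an unadjusted p moved more. Over all settings the median ranged from -1.03 to -0.27 in colitis against normal, from -1.96 to -0.69 in colitis with BBR against normal and from -1.29 to -0.24 for the interaction. For BBR in normal mice it ranged from -0.13 to 0.44 and was negative without normal mouse 1, normal mouse 3 or mouse 4 of the normal group with BBR. The signs of 4 collagen genes changed with quantile normalization in colitis against normal, and of 5 with median centring. What 3 reads are worth depends on gene length, from 0.0133 FPKM in Col12a1 to 0.0884 FPKM in Col26a1.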

Other observations

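Of the 9 collagen symbols below the mean of 0.1 FPKM, Col10a1, a short chain collagen of growth plate cartilage, followed the division of mice seen in Col2a1. It was 0.15, 0.41, 0.15 and 0.12 FPKM in the number-4 mice of the normal, normal BBR, colitis and colitis BBR groups and 0.05 FPKM or less in the others. Col4a3 and Col4a4, which form the type IV network of the kidney filter, were 0.02 to 0.15 and 0.01 to 0.12 FPKM over the 12 mice. Col22a1, a fibril-associated chain of tissue junctions, was 0.00 to 0.13 FPKM. Col25a1 and Col26a1 did not exceed 0.20 FPKM in any mouse, Col6a6 did not exceed 0.07 FPKM and Col19a1 did not exceed 0.02 FPKM.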
